A study of Homo sapiens with 20 samples.

Results

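ZBTB48 was followed library by library with MTFP1, VWA5A and PXMP2, 3 genes with a strong loss of RNA in the clones labelled ZBTB48 KO. These are 4 genes of the 43366 in the count table. The 4 genes were taken by name. The 3 targets were chosen by their fold change and adjusted p between WT and KO clones in these same libraries, so that difference is given below as a description and without a test, while the response to interferon gamma (IFNγ) played no part in the choice and was tested. RNA was sequenced from the osteosarcoma cell line U2OS as 5 WT clones and 5 clones labelled ZBTB48 KO. Every clone was sequenced without treatment and after 24 h of IFNγ at 250 U/ml, which gave 4 groups of 5 libraries and 20 libraries in all. A replicate is 1 clone, so differences between genotypes are also differences between clones, and how the clones were edited is not given in the sources used here. Levels are given as CPM, counts scaled to a common library size with TMM normalization.

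ZBTB48 is a BTB zinc finger protein that binds the TTAGGG repeats of telomeres and also binds promoters, where it acts as a transcriptional activator. MTFP1 is a protein of the inner mitochondrial membrane that takes part in mitochondrial division. PXMP2 is a channel-forming membrane protein of peroxisomes and belongs to the MPV17 family. VWA5A carries a VIT and a von Willebrand factor A domain and has been discussed as a tumour suppressor. IFNγ signals through JAK kinases and induces genes of antigen presentation.

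The promoters of the targets are shown because the targets were low in the same libraries. RefSeq promoter sequences of GRCh38.p14, from 250 bases before to 50 bases after the start of the gene, matched 3 of the 4 genes, and VWA5A had no entry. The MTFP1 promoter lies at chr22:30425518-30425817 on the plus strand and the PXMP2 promoter at chr12:132687337-132687636 on the plus strand. In both, capitals mark AGGGA read on either strand, the longest run shared by b.1 and f.2, 2 bait repeats of 15 bases that the study designed from the CIITA promoter for pull-downs of ZBTB48.
MTFP1: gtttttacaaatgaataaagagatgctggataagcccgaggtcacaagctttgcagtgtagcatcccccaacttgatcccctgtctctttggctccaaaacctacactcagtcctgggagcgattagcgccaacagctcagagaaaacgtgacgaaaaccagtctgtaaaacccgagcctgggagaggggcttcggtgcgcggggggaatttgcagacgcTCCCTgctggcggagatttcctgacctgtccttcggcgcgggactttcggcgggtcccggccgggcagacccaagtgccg
PXMP2: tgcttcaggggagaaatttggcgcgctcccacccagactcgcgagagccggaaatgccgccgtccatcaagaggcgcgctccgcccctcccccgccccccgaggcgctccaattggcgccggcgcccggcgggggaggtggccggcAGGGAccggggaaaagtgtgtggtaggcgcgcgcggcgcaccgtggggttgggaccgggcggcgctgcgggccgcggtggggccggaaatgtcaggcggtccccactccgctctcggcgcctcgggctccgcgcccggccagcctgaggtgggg
CIITA probe b.1: cttaAGGGAgtgtgg
CIITA probe f.2: gtgAGGGAtcatcaa
With the first base of the gene counted as 0, the run stood on the minus strand from -30 to -26 in the MTFP1 promoter and on the plus strand from -104 to -100 in the PXMP2 promoter. It was not found in the ZBTB48 promoter. The run is common, since 64.5% of 35116 RefSeq promoters of the same length held it on either strand. The telomeric repeat TTAGGG was found in none of the 3 promoters and in 9.05% of all promoters. The GC content was 57.0% in the MTFP1 promoter, 75.7% in the PXMP2 promoter and 63.7% in the ZBTB48 promoter, with a median of 58.7% over all promoters. These matches are descriptions of letters in a window and say nothing about binding.

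Total counts per library ranged from 46652288 to 72952859. As a check of the treatment, IRF1, GBP1, TAP1 and PSMB9 rose in both genotypes, with log2 fold changes of 4.41 to 8.73 in WT clones and 4.68 to 9.89 in libraries labelled KO (edgeR's quasi-likelihood test). Of 8 mesenchymal markers, 6 exceeded 1 CPM in some library, and COL1A1 ranged from 2324 to 5700 CPM in untreated WT clones, while SP7 stayed at or under 0.0708 CPM. All 4 epithelial markers exceeded 1 CPM in some library, with summed levels of 246 to 555 CPM in untreated WT clones and 315 to 848 CPM in untreated libraries labelled KO. Only 1 of 5 leukocyte and 1 of 2 endothelial markers did so. The part of these cell type markers in the results below was not tested. The libraries of KO replicates 4 and 5 go against their clone labels. Over genes, each untreated library's deviations from its group correlated with those of its own treated library at Pearson's r of 0.588 to 0.772 in the 5 WT clones and 0.565 to 0.769 in KO replicates 1 to 3. For KO replicates 4 and 5 this r was -0.029 and 0.032, but it was 0.528 between untreated replicate 4 and treated replicate 5 and 0.614 between untreated replicate 5 and treated replicate 4. The responses of the 4 genes in libraries labelled KO are therefore also given without them.

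ZBTB48 mRNA was low in 4 of the 5 clones labelled KO and above WT in the other. The gene spans chr1:6579994-6589280 on the plus strand of GRCh38. It had 8.82, 8.02, 8.87, 9.43 and 9.24 CPM in untreated WT replicates 1 to 5 and 1.29, 1.94, 11.3, 3.12 and 4.06 CPM in the untreated libraries labelled KO. KO replicate 3 stood above every WT clone, and the other 4 stood below every WT clone. After IFNγ it had 10.9, 9.74, 8.80, 11.6 and 9.21 CPM in WT clones and 1.69, 1.78, 15.8, 3.84 and 5.27 CPM in libraries labelled KO, in the same order of clones. Of the mean WT level, the untreated libraries labelled KO kept 14.6%, 21.9%, 127%, 35.1% and 45.7%. These 5 shares do not overlap in their exact 95% Poisson intervals, except that replicates 1 and 2 meet between 17.7% and 18.5% and replicates 4 and 5 between 39.6% and 40.6%. Such intervals cover counting error only, with the WT mean taken as fixed. The ratio of the mean WT to the mean KO level was 2.04 in untreated and 1.77 in treated libraries, and 3.41 and 3.19 without KO replicate 3. A whole-gene count does not tell whether the transcript that remains can be translated. Because 1 clone thus has ZBTB48 mRNA at or above the WT level despite its label, the text says libraries labelled KO.

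MTFP1 was nearly lost in every library labelled KO. It spans chr22:30425768-30429054 on the plus strand. Untreated WT replicates 1 to 5 had 34.0, 48.5, 27.2, 37.8 and 53.0 CPM, and the untreated libraries labelled KO had 0.791, 0.223, 0.938, 0.607 and 0.514 CPM. After IFNγ the values were 40.7, 44.3, 32.8, 36.7 and 47.7 CPM in WT clones and 0.510, 0.234, 0.284, 0.901 and 0.424 CPM in libraries labelled KO. The WT clone with the lowest level exceeded the highest library labelled KO 29.0-fold in untreated and 36.4-fold in treated libraries. The ratio of group means was 65.2 untreated and 85.9 after IFNγ. In such bulk RNA, fewer cells that express a gene and less RNA per cell cannot be told apart.

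VWA5A was also nearly lost, and it was the target that differed most among WT clones. It spans chr11:124115450-124147721 on the plus strand. Untreated WT replicates had 17.8, 15.7, 19.7, 24.7 and 7.77 CPM, and the untreated libraries labelled KO had 0.367, 0.0607, 0.625, 0.658 and 0.435 CPM, from 19, 3, 38, 39 and 22 counts. After IFNγ the WT clones had 6.87, 8.58, 9.35, 11.05 and 3.72 CPM, and the libraries labelled KO held 1, 7, 8, 3 and 6 counts. The ranges of the genotypes did not overlap, and WT replicate 5 was the lowest WT clone in both treatments. The ratio of group means was 40.0 untreated and 91.1 after IFNγ, the latter resting on a handful of counts in libraries labelled KO.

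PXMP2 kept the most RNA of the 3 targets. It spans chr12:132687587-132704985 on the plus strand, where 8 exonic bases are shared with LOC124903063 on the opposite strand. Untreated WT replicates had 28.2, 31.4, 33.9, 42.0 and 32.8 CPM, and the untreated libraries labelled KO had 2.68, 4.01, 2.27, 2.97 and 3.48 CPM. After IFNγ the values were 28.7, 27.6, 28.7, 37.6 and 30.5 CPM in WT clones and 2.97, 4.28, 2.0, 3.08 and 2.19 CPM in libraries labelled KO. The groups did not overlap, and the ratio of group means was 10.9 untreated and 10.5 after IFNγ.

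Per kb of transcript, the targets were not alike in WT clones. MTFP1 had 35.4 ± 9.33 CPM per kb (SD, n = 5) and PXMP2 34.7 ± 5.28 CPM per kb (SD, n = 5), and these 2 levels differed by less than their spread. VWA5A had 3.46 ± 1.26 CPM per kb (SD, n = 5) and ZBTB48 3.09 ± 0.189 CPM per kb (SD, n = 5), again within their spread. In untreated libraries labelled KO the order of the targets was PXMP2 with 3.18 ± 0.701, MTFP1 with 0.542 ± 0.241 and VWA5A with 0.0867 ± 0.0485 CPM per kb (SD, n = 5 each), and the ranges of the 3 genes did not overlap.

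As fitted by edgeR, the log2 fold change of WT over KO was 6.0 (SE 0.36) for MTFP1, 5.29 (SE 0.53) for VWA5A, 3.44 (SE 0.18) for PXMP2 and 1.02 (SE 0.48) for ZBTB48 in untreated libraries. After IFNγ it was 6.42 (SE 0.36), 6.49 (SE 0.52), 3.39 (SE 0.22) and 0.82 (SE 0.53). The 3 targets are the genes that passed an adjusted p under 0.01 and a change over 2-fold, 3 of 19505 genes tested (0.0154%) in untreated and 3 of 19383 (0.0155%) in treated libraries, and nothing is read from this count, since the contrast chose them. Nearest outside the cut-off on the adjusted p stood COL11A1 and PPP3CB in untreated libraries, at log2 fold changes of 1.17 and 1.83, and PPP3CB in treated libraries, at 1.83. DESeq2 without shrinkage called PPP3CB in both (adjusted p of 4.89e-10 and 5.60e-09), where it called 0.0615% and 0.0825% of all genes tested. Of the genes inside the cut-off with edgeR, VWA5A stood nearest to it in both.

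Among the libraries labelled KO, the observed order of the targets differed from that of ZBTB48 in both treatments. The order of VWA5A after IFNγ came close to that of ZBTB48, but it rests on 1, 7, 8, 3 and 6 counts. The exact Poisson intervals of these counts all overlap, so these places are not resolved. The order of MTFP1 rests on 11 to 57 counts per library, with intervals that overlap for some clones but not for all. KO replicate 3, with the most ZBTB48 mRNA in each treatment, kept 2.34% of the mean WT level of MTFP1, 3.65% of VWA5A and 6.74% of PXMP2 when untreated, and 0.701%, 1.91% and 6.54% after IFNγ. Its PXMP2 was the lowest and its MTFP1 the highest of the 5 untreated libraries labelled KO. KO replicate 1, with the least ZBTB48 mRNA, kept 1.97% of MTFP1, 2.14% of VWA5A and 7.97% of PXMP2 when untreated. KO replicate 2 had the lowest MTFP1 in both treatments, at 0.555% and 0.578% of the mean WT level, and at the same time the highest PXMP2, at 11.9% and 14.0%. Ranked from the lowest, replicates 1 to 5 as labelled took the places 1, 2, 5, 3 and 4 for ZBTB48 in both treatments. In untreated libraries they took the places 4, 1, 5, 3 and 2 for MTFP1, 2, 1, 4, 5 and 3 for VWA5A, and 2, 5, 1, 3 and 4 for PXMP2. After IFNγ the places were 4, 1, 2, 5 and 3 for MTFP1, 1, 3, 5, 2 and 4 for VWA5A, and 3, 5, 1, 4 and 2 for PXMP2. All these places follow the clone labels, which the libraries of KO replicates 4 and 5 go against. Exchanging the treated libraries of replicates 4 and 5 would exchange their places after IFNγ for every gene, ZBTB48 included. With 5 clones no correlation was computed.

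The spread among libraries labelled KO was wide for VWA5A and ZBTB48 and narrow for PXMP2. The highest of the 5 untreated libraries exceeded the lowest 8.74-fold for ZBTB48, 10.8-fold for VWA5A, 4.21-fold for MTFP1 and 1.77-fold for PXMP2. In untreated WT clones the same ratio was 1.18, 3.18, 1.95 and 1.49. The KO ratio of ZBTB48 depends on KO replicate 3, without which the untreated libraries ranged from 1.29 to 4.06 CPM. For VWA5A the KO ratio rests on a lowest library of 3 counts, whose share of the mean WT level was 0.354% with an exact 95% Poisson interval of 0.073% to 1.04%.

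Whether IFNγ alters the 4 genes was asked within each genotype. In WT clones edgeR called 585 of 19522 genes (3.0%), 100 of them lower (0.512%), in a fit that left out the pairing of libraries by clone. None of the 4 genes was called in it. VWA5A came closest. It was lower after IFNγ in 5 of 5 WT clones, with log2 changes of -1.37, -0.87, -1.07, -1.16 and -1.06 in replicates 1 to 5, although the ranges of the groups overlapped. The log2 fold change was -1.10 (SE 0.33, edgeR adjusted p = 0.0521), 2.15-fold lower, with a 95% interval of -1.82 to -0.39, and 2.96% of the genes tested had a lower value. When the clone was kept as a replicate block, which uses the pairs of libraries, edgeR called 7.24% of all genes. The change in VWA5A was called there, at -1.09 (SE 0.088, edgeR adjusted p = 1.93e-06). DESeq2 without shrinkage called it at -1.10 (adjusted p = 0.00875), with 5.0% of all genes called. EdgeR also called it without WT replicate 5, the clone with the lowest VWA5A level, at -1.10 (adjusted p = 0.00987), with 2.32% of all genes called. It was not called without WT replicate 1, 2, 3 or 4 (edgeR adjusted p = 0.191, 0.144, 0.132 and 0.115). The fit with no filter on low counts did not call it either (edgeR adjusted p = 0.061). A joint fit of all 20 libraries did not call it (edgeR adjusted p = 0.122). Over every alternative fit the adjusted p lay between 1.93e-06 and 0.191. The exact sign-flip permutation test over the 5 clones gave p = 0.0625 (two-sided), the smallest that 5 pairs allow.

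The other 3 genes showed no change with IFNγ past the cut-offs in WT clones. MTFP1 had a log2 fold change of 0.03 (SE 0.18, edgeR adjusted p = 0.95), with a 95% interval of -0.37 to 0.43, and was higher in 2 of 5 clones. PXMP2 had -0.12 (SE 0.13, edgeR adjusted p = 0.644), with an interval of -0.41 to 0.17, and was lower in 4 of 5 clones. ZBTB48 had 0.19 (SE 0.13, edgeR adjusted p = 0.423), with an interval of -0.10 to 0.49, and was higher in 3 of 5 clones. With the clone as a replicate block these 3 genes again stayed outside the cut-offs, with adjusted p between 0.108 and 0.57.

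In libraries labelled KO edgeR called 379 of 19385 genes (1.96%), and none of the 3 genes tested was among them. ZBTB48 had a log2 fold change of 0.38 (SE 0.71, edgeR adjusted p = 0.806) and was higher after IFNγ in 4 of 5 pairs of libraries, in 3 of 5 when KO replicates 4 and 5 swapped their treated libraries and in 2 of 3 without both. MTFP1 had -0.39 (SE 0.47, edgeR adjusted p = 0.679), with a 95% interval of -1.41 to 0.63. It differed most in KO replicate 3, where it went from 57 to 15 counts, and its log2 fold change was -0.04 without that replicate (edgeR adjusted p = 0.983) and -0.93 without KO replicates 4 and 5 (edgeR adjusted p = 0.599). PXMP2 had -0.09 (SE 0.26, edgeR adjusted p = 0.891), with an interval of -0.66 to 0.49, and 0.05 without KO replicates 4 and 5. VWA5A did not pass the filter on low counts in this comparison. It was lower after IFNγ in 4 of 5 pairs of libraries labelled KO, and in 2 of 3 without KO replicates 4 and 5, and KO replicate 2, with 3 and 7 counts, went the other way. Without the filter on low counts the log2 fold change was -2.29 (SE 0.67, edgeR adjusted p = 0.0805). A joint fit of all 20 libraries, which VWA5A entered only through its counts in WT clones, gave -2.30 (SE 0.53, edgeR adjusted p = 0.00732), in a fit that called 3.05% of all genes, and on 1 to 39 counts per library this is not read as a change.

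No gene passed the cut-offs for a response that differed between genotypes. The interaction of genotype and treatment gave 0 calls among 21052 genes (0.0%) with edgeR, with and without the clone as a block, and with DESeq2. That block follows the clone labels, which the libraries of KO replicates 4 and 5 go against. In the edgeR fit without the block, 86 genes (0.409%) had an unadjusted p under 0.05. This fit treats both libraries of a clone as independent, and that share is below what such a cut-off gives by chance. The 0 calls therefore do not show that the responses are alike. For VWA5A the log2 response in WT clones exceeded that in libraries labelled KO by 1.19 (SE 0.67, edgeR adjusted p = 1.00), with a 95% interval of -0.22 to 2.59. It was 0.41 (SE 0.45) for MTFP1, -0.06 (SE 0.27) for PXMP2 and -0.21 (SE 0.76) for ZBTB48, each with an edgeR adjusted p of 1.00. With the clone as a block, the difference for VWA5A was 1.09 (SE 0.48) and was not called. Its 95% interval of 0.04 to 2.14 left out 0, but it is not adjusted over the genes tested. Compared clone by clone in exact two-sided permutation tests of 5 against 5 responses, the means differed by 0.68 for VWA5A (p = 0.302), 0.41 for MTFP1 (p = 0.341), -0.02 for PXMP2 (p = 0.897) and -0.11 for ZBTB48 (p = 0.437). Exchanging the treated libraries of KO replicates 4 and 5 left the means as they were and gave p of 0.31, 0.397, 0.794 and 0.54. Without both replicates the differences were 0.32, 0.76, -0.15 and -0.07 (exact permutation p = 0.607, 0.143, 0.179 and 0.679). Without KO replicate 2 the difference was 1.26 for VWA5A (exact permutation p = 0.0159) and -0.21 for ZBTB48 (exact permutation p = 0.0317). Neither is read as a difference, since no adjustment was made over the 4 genes or over the clones left out in turn. VWA5A passed the filter here only through its counts in WT clones, and it held 1 to 8 counts in treated libraries labelled KO. With all clones, its mean difference was 1.00 at a prior count of 0.5 and 0.33 at a prior count of 5.

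Genes beside the 4 were examined to see whether the loss of RNA extended over the neighbourhood. Within 100 kb of the 4 genes lay 42 genes, of which 18 were tested in untreated and 19 in treated libraries. Between WT and KO clones edgeR called 0 of them in either treatment. This 0 carries no information, since the 3 targets were the only genes called (0.0154% and 0.0155% of all genes tested). Of the neighbours, 1 in each treatment had an unadjusted p under 0.05, beside 4.79% and 4.35% of all genes tested. These were LOC105372990 after IFNγ and, chosen after its value was seen, SF3A1 near MTFP1 at -0.23 (SE 0.10) when untreated. DESeq2 without shrinkage also called 0. SEC14L2, which encodes a lipid-binding protein and ends 465 bases before MTFP1, had a log2 fold change of 0.01 (SE 0.20) in untreated libraries and 0.17 (SE 0.24) in treated ones. POLE, the catalytic subunit of DNA polymerase epsilon, starts 245 bases from PXMP2 on the other strand and had -0.12 (SE 0.12) and 0.02 (SE 0.14). On the other side of PXMP2, PGAM5, a mitochondrial phosphatase, had -0.11 (SE 0.10) and -0.07 (SE 0.13). LOC124903063, which overlaps PXMP2, had 0.52 (SE 0.25) and 0.20 (SE 0.26). Beside ZBTB48, KLHL21 had 0.01 (SE 0.23) and 0.11 (SE 0.47), and NOL9 had 0.08 (SE 0.21) and 0.11 (SE 0.23). No tested gene lay within 100 kb of VWA5A.

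The exception in size was LOC105372990, an uncharacterized gene 3632 bases downstream of MTFP1 on the same strand. In treated libraries its log2 fold change was 3.95 (SE 0.91, edgeR adjusted p = 0.802), which did not pass the test. Without KO replicate 4, when the other treated libraries labelled KO all held 0 counts, the fitted value was 7.41 (SE 0.82, edgeR adjusted p = 0.0564), a size that depends on the prior count. It held 17, 28, 21, 24 and 16 counts in treated WT clones and 0, 0, 0, 6 and 0 counts in treated libraries labelled KO. In untreated libraries it held 4, 40, 3, 17 and 17 counts in WT clones and 0, 0, 0, 0 and 7 counts in libraries labelled KO, too few to pass the filter. The libraries labelled KO that held counts were replicate 5 untreated and replicate 4 treated, the pair that also correlated in the check of clone labels.

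None of the genes listed for the processes of the 4 genes was called by edgeR between WT and KO clones. This carries no information, since the 3 targets, which the lists leave out, were the only genes called (0.0154% and 0.0155% of all genes tested). An unadjusted p under 0.05 was held by 4.79% of all genes tested in untreated and 4.35% in treated libraries. Of 20 genes of mitochondrial division and fusion, all were tested and edgeR called 0 in either treatment, with 0 at an unadjusted p below 0.05. The median of their log2 fold changes was 0.02 untreated and -0.02 after IFNγ, beside 0.00 and -0.02 over all genes tested. The largest values were 0.31 (SE 0.18) for MUL1, a mitochondrial ubiquitin ligase, in untreated libraries and 0.42 (SE 0.20) for INF2, a formin that acts at sites of division, in treated ones. Of 23 genes of the peroxisome membrane and peroxisome biogenesis, 0 were called and 1 had an unadjusted p under 0.05 in each treatment. The median was 0.04 in both, and the largest values were 0.53 (SE 0.20) for PEX10, a ubiquitin ligase of protein import, and 0.60 (SE 0.39) for PEX11G, a factor of peroxisome division. The relatives of PXMP2, MPV17 and MPV17L2, lay between -0.17 and 0.08. Of 12 genes whose products bind telomeric DNA or its complexes, 0 were called and 1 in each treatment had an unadjusted p under 0.05. The largest values were 0.30 (SE 0.13) for TINF2, a shelterin subunit, and -0.40 (SE 0.16) for ZBTB10, another zinc finger protein of telomeric repeats. DESeq2 without shrinkage called none of these genes either.

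Among 15 proteins with VIT or VWA domains, 7 were tested and edgeR called 0, with 2 at an unadjusted p under 0.05 in untreated and 1 in treated libraries. The median log2 fold change was 0.24 untreated and 0.15 after IFNγ. VWA5B2, a relative of VWA5A, had the largest difference of all the lists. It had 33.7 to 82.7 CPM in untreated WT clones against 9.69 to 32.5 CPM in libraries labelled KO, and 13.9 to 39.7 CPM against 5.52 to 8.53 CPM after IFNγ, so the ranges did not overlap in either treatment. Nothing is read from this, since VWA5B2 was named for its difference and the share of all genes with such ranges was not computed. The log2 fold change was 1.62 (SE 0.36, edgeR adjusted p = 0.612) and 1.76 (SE 0.32, edgeR adjusted p = 0.262). DESeq2 without shrinkage called VWA5B2 in both, with adjusted p of 0.00442 and 9.09e-05, where it called 12 (0.0615%) and 16 (0.0825%) of all genes tested. Over the 5 lists, 4 of 64 genes tested (6.25%) had an unadjusted p under 0.05 in untreated and 3 of 64 (4.69%) in treated libraries, near the 4.79% and 4.35% of all genes.

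VWA5B2 had negative values with IFNγ in both genotypes. Its log2 fold change was -1.10 (SE 0.36, edgeR adjusted p = 0.0798) in WT clones and -1.25 (SE 0.31, edgeR adjusted p = 0.0306) in libraries labelled KO. With the clone as a replicate block it was called in WT clones at -1.15 (SE 0.078, edgeR adjusted p = 7.07e-07). The same fit gave -1.13 for libraries labelled KO (SE 0.22, edgeR adjusted p = 0.0122), where KO replicates 4 and 5 go against the labels that form the block. Without these 2 replicates the fit with no block gave -1.49 (SE 0.47, edgeR adjusted p = 0.265). PEX11A, which takes part in peroxisome division, and OMA1, a mitochondrial protease, were named after their values were seen. PEX11A had -0.87 (SE 0.17, edgeR adjusted p = 0.00738) in WT clones, past the cut-off on p but not 2-fold, and -0.99 (SE 0.21, edgeR adjusted p = 0.0169) in libraries labelled KO. Leaving out KO replicate 2 turned this latter value into a call, at -1.18 (edgeR adjusted p = 0.00883). OMA1 had -0.67 (SE 0.14, edgeR adjusted p = 0.0112) in WT clones and -0.69 (SE 0.24, edgeR adjusted p = 0.102) in libraries labelled KO. With all clones, edgeR called 0 genes of the 5 lists with IFNγ in either genotype, while 15 of 63 tested in WT clones (23.8%) and 15 of 65 in libraries labelled KO (23.1%) had an unadjusted p under 0.05, beside 24.9% and 23.5% of all genes tested.

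Over the 20 libraries, the gene whose log2 CPM was most like that of a target was another target in each case. These correlations are descriptions over libraries that share clones and that fall into the 2 genotypes. Since the 3 targets were chosen by their difference between these genotypes, their likeness to each other is built in. Nothing is read from it, or from the lower values of ZBTB48. Pearson's r was 0.97 between MTFP1 and PXMP2, 0.94 between MTFP1 and VWA5A and 0.92 between VWA5A and PXMP2, while ZBTB48 reached 0.65, 0.67 and 0.57 with MTFP1, VWA5A and PXMP2. The other genes among the 3 most alike were CCDC106 for MTFP1 (r = 0.91) and PXMP2 (r = 0.93), PPP3CB, a catalytic subunit of calcineurin, for PXMP2 (r = 0.93), and GNPTG, a subunit of the enzyme that tags lysosomal hydrolases, for VWA5A (r = 0.89). CCDC106 ranged from 7.33 to 13.5 CPM in untreated WT clones and from 1.53 to 3.46 CPM in untreated libraries labelled KO. PPP3CB ranged from 72.8 to 103 CPM against 11.3 to 29.1 CPM. GNPTG ranged from 45.2 to 66.5 CPM against 36.7 to 43.6 CPM. The genes most like ZBTB48 itself were others, namely TIMP1, an inhibitor of matrix metalloproteinases (r = 0.87), ECM1, a matrix protein (r = 0.85), and IFI27L2 (r = 0.83), and the WT and KO ranges of all 3 overlapped. By rank correlation 0 of the 3 closest genes stayed the same for ZBTB48, MTFP1 and PXMP2 and 1 of 3 for VWA5A.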

How the data were processed

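Stranded mRNA libraries of 20 samples were sequenced by the authors, who used STAR 2.7.9a for alignment to GRCh38 and featureCounts 2.4.0 for counting uniquely mapped reads per RefSeq gene. The authors deposited raw counts, with no normalization, and the strand setting of the counting is not given in the sources used here. From these, CPM (TMM), log2 CPM (prior count 2) and edgeR 4.0.16 quasi-likelihood tests were computed in R 4.3.3, after edgeR's filter on low counts and with Benjamini-Hochberg adjustment over all genes tested. Called means an adjusted p under 0.01 and a change over 2-fold. The scripts were tested on simulated data. DESeq2 1.42.0, with and without shrinkage, is an alternative here and the tool of the study's methods. Each SE is the log2 fold change over the square root of F, and 95% intervals use the t distribution of that fit.

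The 4 genes and the gene lists were chosen with earlier results of these data known. Also named are the 3 genes most like each by Pearson's r, the nearest tested genes within 100 kb, the gene of each list with the largest difference, and IRF1, GBP1, TAP1 and PSMB9. 1 further gene of the treatment check is not reported here. The labels name each library's clone, which pairs treated with untreated libraries, and deviations of paired libraries correlated at r over 0.5 except for KO replicates 4 and 5. Replicate numbers do not pair WT with KO clones. Total counts, from 46652288 to 72952859 per library, set the counting error, which is large for VWA5A in libraries labelled KO. Clones are the replicates.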

Additional observations from a re-analysis of the deposited data

Results flagged for a closer look

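Of 24 groups of 5 values (the CPM of each gene in each group and its response within each genotype), 3 held 1 value set far apart from the other 4, where chance sets apart about 1 in 20 groups, or 1.2 of 24. ZBTB48 stood at 11.3 CPM in untreated KO replicate 3 and at 15.8 CPM in treated KO replicate 3, against at most 4.06 and 5.27 CPM in the other libraries labelled KO. Both are libraries of the same clone, so they are not independent of each other. PXMP2 stood at 37.6 CPM in treated WT replicate 4, against at most 30.5 CPM in the other treated WT clones, and the same clone was also the highest when untreated, at 42.0 CPM.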

How the results depend on the processing

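Across the settings tried, 502 values kept their direction and side of the cut-offs or stayed within 1.5 times the count, and those that did not are given here. In the cases below the cause was not tested. Between untreated WT and KO clones, where edgeR called 3 genes, there were 5 calls with no filter on low counts, 12 with DESeq2 without shrinkage, 5 with shrinkage and 5 with all 20 libraries fitted together. After IFNγ, also 3 with edgeR, the same settings gave 5, 16, 6 and 6 calls. Shrinkage in DESeq2 brought the log2 fold changes of WT over KO to 2.30 for MTFP1, 1.21 for VWA5A and 2.4 for PXMP2 in untreated libraries and to 2.93, 2.01 and 2.25 after IFNγ. For the response to IFNγ, DESeq2 without shrinkage called 976 genes in WT clones, and 823 where the label was KO. In the latter there were 613 calls with shrinkage, 642 with all 20 libraries and 22 with KO replicates 4 and 5 left out. Without these 2 replicates PXMP2 changed sign, to 0.049 in the edgeR fit and 0.020 within clones. DESeq2 without shrinkage called VWA5A in WT clones at -1.10, and 1 gene, VWA5B2, of the VIT and VWA proteins in both genotype comparisons and with IFNγ in libraries labelled KO.

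With the replicate block, the number of calls was 1 (untreated) and 2 (after IFNγ) between WT and KO clones, whose numbers are shared in name only, since same-numbered clones correlated at r of -0.206 to 0.214. For treatment, where the block is the clone, it was 1414 in WT clones, 721 in KO-labelled libraries, and VWA5A was called in WT clones at -1.09. Which targets stayed called between WT and KO clones with this block is not read as a result, since that contrast chose them. For the responses to IFNγ and their difference, the block changed no other call of the 4 genes.

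Leaving out 1 clone at a time gave 2 to 4 calls between untreated WT and KO clones and 3 to 5 after IFNγ, the 5 without KO replicate 1. With IFNγ it gave 318 to 457 calls in WT clones, with 355 without WT replicate 1 and 318 without WT replicate 2. In libraries labelled KO it gave 131 to 490 calls, with 167, 160, 131 and 142 without KO replicates 1, 3, 4 and 5. The interaction gave 0 to 0 calls, and the peroxisome list 0 to 1 in libraries labelled KO, with PEX11A called without KO replicate 2. In WT clones the log2 fold change with IFNγ ranged from -0.026 to 0.087 for MTFP1 and from -1.16 to -1.04 for VWA5A, and it ranged from -0.16 to 0.053 for PXMP2 in libraries labelled KO, positive without KO replicate 5. The difference between genotypes for PXMP2 ranged from -0.18 to 0.015. Within clones, the mean response ranged from -0.016 to 0.090 for MTFP1 in WT clones and from -0.17 to 0.029 for PXMP2 in libraries labelled KO. The difference between genotypes within clones ranged from -0.21 to -0.061 for ZBTB48, from 0.38 to 1.26 for VWA5A and from -0.16 to 0.038 for PXMP2. Without KO replicate 4, LOC105372990 went from 3.95 to 7.41 between treated WT and KO clones. VWA5A held 1 to 8 counts in treated libraries labelled KO, which limits the precision of its response there.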
